A study of Homo sapiens with 6 samples.

Results

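The genes described are the D and E cyclins and the inhibitors of the kinases they activate, 10 genes of 30818 named on the array. They were taken by gene symbol from a list: the D cyclins CCND1, CCND2 and CCND3, the E cyclins CCNE1 and CCNE2, the CIP/KIP inhibitors CDKN1A (p21), CDKN1B (p27) and CDKN1C (p57), and the INK4 inhibitors CDKN2B (p15) and CDKN2C (p18). The array held 21 probes for them among 47231. All cells were MDA-MB-231, an established human breast cancer line without hormone receptors or HER2 amplification, grown in RPMI medium with serum. The 3 vehicle samples received DMSO, and the 3 riluzole samples received 25 µM riluzole, a drug for amyotrophic lateral sclerosis that lowers glutamate release. Treatment lasted 24 hours by the labels of each sample, and overnight by the design of the series. Each sample was read on 1 single-colour bead array, and the comparison asks which transcripts differed between drug and solvent.

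D cyclins pair with the kinases CDK4 and CDK6 in response to growth signals and start the phosphorylation of the retinoblastoma protein RB. E cyclins pair with CDK2, complete that phosphorylation and open S phase, and their own transcription is driven by the E2F factors that RB holds back. INK4 proteins bind CDK4 and CDK6 only, whereas CIP/KIP proteins bind whole cyclin-kinase complexes and act mainly on CDK2. Much of the control of p27, p21 and the cyclins lies in protein turnover, which an array of transcripts does not read.

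With riluzole CCNE2 was lower, and the D cyclins and CIP/KIP inhibitors showed no called change. CCNE2 fell 1.78-fold (95% interval 1.5 to 2.12, n = 3 per group, limma adjusted p = 0.0179). CCNE1 was 1.5-fold lower on the probe that stood for the gene (1.19 to 1.90) and did not pass (adjusted p = 0.107). Another of its probes passed in the limma fit over all kept probes (adjusted p = 0.0298), where 0.241% were called lower. That probe's call was lost with any 1 array left out. CCNE2 was thus the 1 called member of the 9 members that could be tested. Of all 14887 genes tested 1.18% were called, 0.43% lower and 0.752% higher. The median log2 fold change was -0.09 over the 5 cyclins and -0.14 over the 4 testable inhibitors, with 0.00 over all genes tested. The inhibitor median rests on which CDKN2C probe is read, and was 0.07 with the mean of each gene's kept probes.

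The stretches before the transcription start of CCNE1, CDKN1B and CDKN2C are shown for orientation. By the probes that stood for them these genes were not called, and no link between the sequences and the changes was tested. Each is the 250 bases before the outermost start of the gene in RefSeq (GRCh38.p14), all on the plus strand. They are chr19:29811741-29811990 for CCNE1, chr12:12717118-12717367 for CDKN1B and chr1:50960495-50960744 for CDKN2C. Capitals mark the GC box GGGCGG, the letters bound by Sp1-type factors, read on either strand.
CCNE1: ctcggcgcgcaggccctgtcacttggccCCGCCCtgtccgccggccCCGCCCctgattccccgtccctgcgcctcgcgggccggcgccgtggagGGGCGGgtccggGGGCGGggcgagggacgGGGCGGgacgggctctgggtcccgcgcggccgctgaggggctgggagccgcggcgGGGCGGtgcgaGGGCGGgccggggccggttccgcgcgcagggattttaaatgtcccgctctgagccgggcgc
CDKN1B: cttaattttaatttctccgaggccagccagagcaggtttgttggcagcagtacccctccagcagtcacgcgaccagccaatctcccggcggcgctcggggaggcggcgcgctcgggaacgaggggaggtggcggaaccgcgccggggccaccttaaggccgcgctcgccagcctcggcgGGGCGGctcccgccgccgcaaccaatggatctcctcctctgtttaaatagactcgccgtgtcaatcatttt
CDKN2C: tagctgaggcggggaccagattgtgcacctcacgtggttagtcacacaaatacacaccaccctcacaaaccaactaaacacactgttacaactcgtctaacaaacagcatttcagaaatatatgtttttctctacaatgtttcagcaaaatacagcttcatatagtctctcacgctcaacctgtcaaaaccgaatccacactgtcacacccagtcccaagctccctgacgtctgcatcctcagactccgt

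The CCNE1 stretch was 81.2% G and C and held 7 GC boxes, that of CDKN1B was 64.4% and held 1, and that of CDKN2C was 45.6% and held 0. No GC box overlapped another in the 3 stretches shown. A further start of CDKN2C, at base 50968706 of chromosome 1, was preceded by a 77.2% G and C stretch with 5 GC boxes, a pair of which overlapped. Of 35116 stretches of the same length before RefSeq starts, 42.64% held a GC box. E2F letters (TTTCCCGC, TTTCGCGC, TTTGCCGC or TTTGGCGC, either strand) stood in 2.79% of them and in 0 of the 10 stretches found for 6 of the 10 genes. That says only that these exact letters are not in these windows. No stretch was found for CCNE2, the called member, or for CCND1, CCND2 and CDKN1C, so nothing is said of theirs.

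Detection set which members could be tested. The array software gives each probe a detection p-value, its rank among the 770 negative control probes, and a probe was kept where this p was under 0.05 on at least 3 of the 6 arrays. Of the 21 probes 14 were kept, covering all 5 cyclins and 4 of the 5 inhibitors. The 7 probes under the filter had raw signals between 80.7 and 166, while the negative controls spanned 76.48 to 139.5 from their 5th to their 95th percentile. CDKN2B, the INK4 inhibitor induced by TGF-beta, had no kept probe. Its 3 probes read between 92.4 and 143 on all arrays, and the brightest, ILMN_1723198, was detected on 1 vehicle and 1 riluzole array. CDKN2A, its neighbour in the INK4 locus, was not detected on any array with its brightest probe (102 to 121). MDA-MB-231 is known as a line that has lost this locus. Other probes under the filter belonged to CCND2, CCNE2, CDKN1A and CDKN2C, each of which had at least 1 kept probe.

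**Figure D1:**
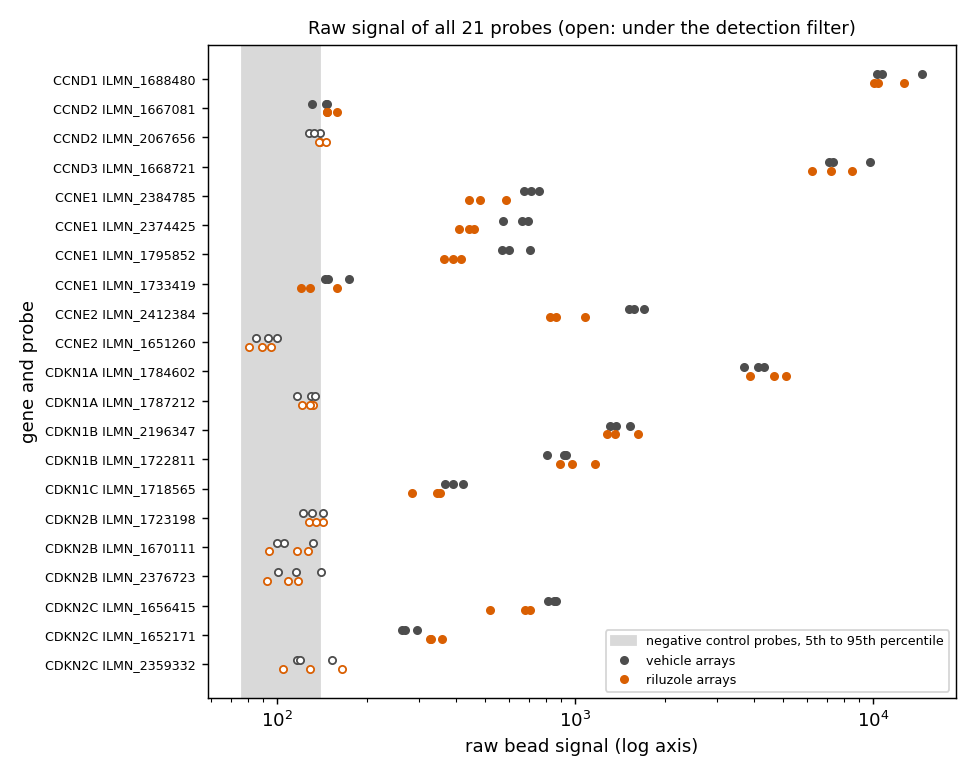
Raw bead signal (log axis) of all 21 probes, 3 vehicle arrays in grey and 3 riluzole arrays in orange, with the 5th to 95th percentile of the negative controls shaded. The 3 CDKN2B probes lie in or beside the shaded band on every array, and open points mark the 7 probes under the detection filter.

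The arrays themselves were alike. Detected probes numbered from 20516 to 20959, median raw signals ranged from 127 to 133, and negative control means from 107 to 111. The line's markers VIM, CD44, EGFR, AXL, CAV1 and KRT18 were detected on all 6 arrays, and 0 of these 6 was called by the brightest probe. Among them KRT18 was 1.74-fold lower with groups apart (adjusted p = 0.0635), with its other probe at -0.09 log2 units, and AXL was -0.40 (0.165) with groups apart on both of its probes. CD44 was 0.24 (0.268), with groups apart on all 3 of its probes, and its dim probe ILMN_1778625 passed as higher over all probes (log2 fold change 0.82, adjusted p = 0.0315, where 0.457% of probes were called higher). Groups were apart in 22.7% of all genes tested and in 21.8% of all kept probes. What part these marker shifts have in the results below was not tested. The hormone receptors ESR1 and PGR and the leukocyte genes PTPRC and CD3E were detected on 0 arrays with their brightest probes, and the epithelial cadherin CDH1 on 1. Of the endothelial genes CDH5 was detected on 0 arrays and PECAM1 on 6, uncalled (adjusted p = 0.267). The number of arrays limits the precision of every value below. Nothing in the labels says that the samples were separate cultures, so the p-values speak for these 6 samples alone and their spread may be technical. Bulk RNA cannot tell fewer cells in a cell cycle phase from less transcript per cell.

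Among the D cyclins, CCND1, the main D cyclin of breast cancer cells, read 13.70, 13.37 and 13.35 log2 units on the vehicle arrays. On the riluzole arrays it read 13.42, 13.57 and 13.38. The groups overlapped, with vehicle replicate 1 the highest of all 6 arrays. Its log2 fold change was -0.02 (95% interval -0.31 to 0.27), and without vehicle replicate 1 or riluzole replicate 3 the sign turned, at 0.09 and 0.02. CCND3, the D cyclin most used in lymphoid cells, read 13.12, 12.80 and 12.86 with vehicle and 12.71, 12.95 and 12.85 with riluzole. Here too the groups overlapped, and the log2 fold change was -0.09 (-0.37 to 0.20, adjusted p = 0.793). It was 0.01 without vehicle replicate 1, the array on which both of these cyclins were highest. CCND2 was close to background, detected on 2 vehicle arrays and 3 riluzole arrays by its kept probe. That probe read 5.72, 5.85 and 5.46 log2 units with vehicle and 6.14, 5.70 and 5.79 with riluzole, a log2 fold change of 0.20 (-0.16 to 0.55). Riluzole replicate 1 was the highest, and the groups overlapped. Without that array the log2 fold change was 0.06, without vehicle replicate 3 it was 0.09, and with the authors' processed values 0.34. The 95% intervals of CCND1 and CCND3 ended short of a 1.5-fold change in either direction, given the spread of these 6 samples. That of CCND2 reached 1.47-fold higher, on a scale that shrinks the folds of dim probes.

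The E cyclins were the members with the lowest log2 fold changes. CCNE2, an E cyclin that is scarce in resting cells and rises at the G1/S boundary, read 10.59, 10.53 and 10.50 log2 units on the vehicle arrays. On the riluzole arrays it read 9.62, 9.86 and 9.64. The vehicle arrays lay close together (SD 0.04), and all 3 riluzole arrays lay clearly below them (SD 0.14). The log2 fold change was -0.83 ± 0.11 (SE), which placed CCNE2 at rank 103 of 14887 genes by size of change and at rank 41 by p-value. The same probe, ILMN_2412384, also passed when all 20788 kept probes were tested (adjusted p = 0.0269, where 0.698% of probes were called). That call over all probes was lost with any 1 array left out (0.0565 to 0.108), with the authors' processed values (0.0596) and with the replicate block (0.109). Its raw signal went from 1602 ± 93.0 to 924 ± 137 (SD, n = 3). The further CCNE2 probe, ILMN_1651260, was detected on 0 arrays and adds nothing on the change.

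The CCNE2 call was not stable when arrays were left out. With 1 array left out it held without riluzole replicate 2 (adjusted p = 0.0387) and missed the threshold without any of the other 5. Those adjusted p-values were 0.0657, 0.0660 and 0.0736 without vehicle replicate 1, 2 or 3, and 0.0668 and 0.0764 without riluzole replicate 1 or 3. The log2 fold change itself stayed between -0.91 and -0.79 in these fits.

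**Figure D2:**
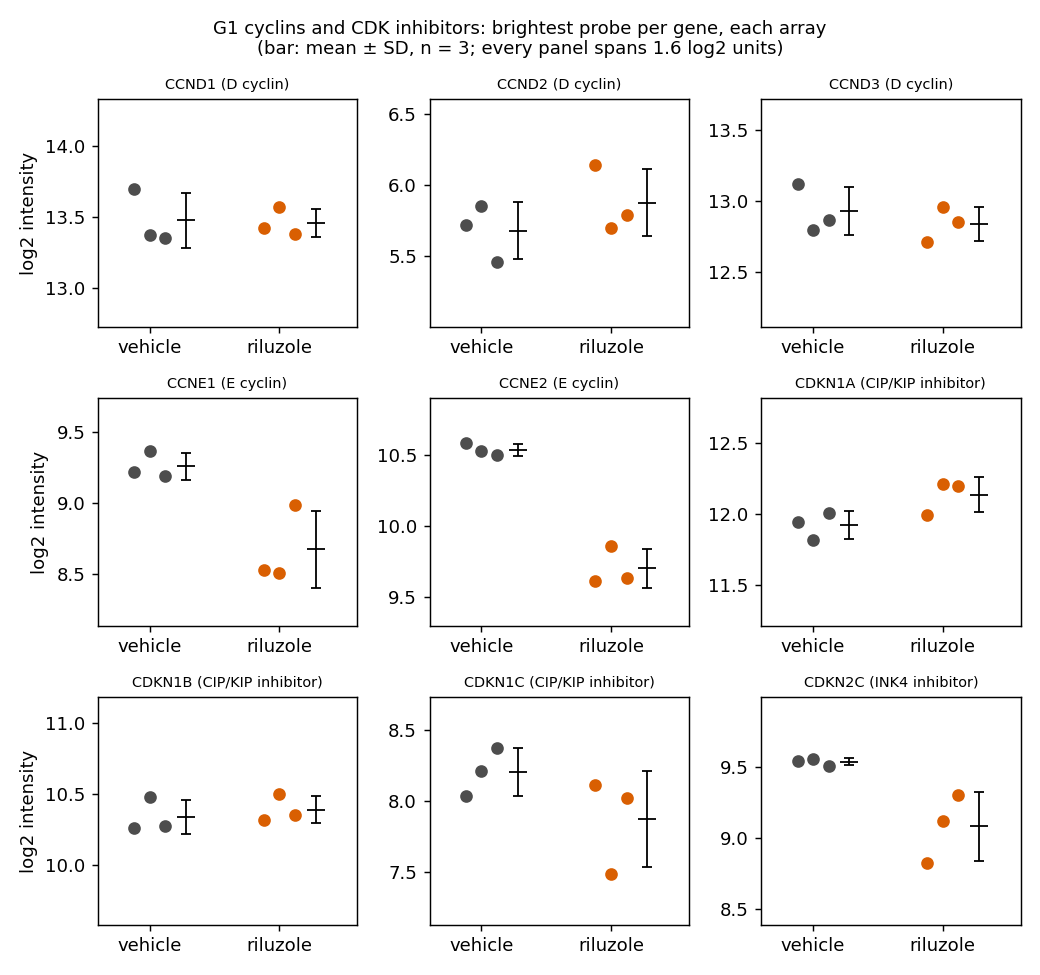
Background-corrected, normalized log2 intensity of the 9 testable genes on each array, by the brightest kept probe, with 3 vehicle arrays (grey), 3 riluzole arrays (orange) and mean ± SD (n = 3). Panels have equal spans but different levels. The groups are apart for CCNE1, CCNE2 and CDKN2C, all lower with riluzole, and overlap for the other 6 genes.

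CCNE1, the E cyclin amplified in some ovarian and breast cancers, had 4 kept probes, which are not replicates of the treatment. Which transcripts each of them reads was not tested. The brightest, ILMN_2384785, stood for the gene and read 9.22, 9.37 and 9.19 log2 units with vehicle and 8.53, 8.51 and 8.99 with riluzole. All riluzole arrays were below all vehicle arrays, with riluzole replicate 3 nearest to them, and the log2 fold change was -0.59 ± 0.15 (SE). Probe ILMN_1795852 read 9.21, 8.99 and 8.91 with vehicle and 8.17, 8.25 and 8.25 with riluzole. On this probe riluzole replicate 3 was as low as the other two, and the fall of 1.76-fold passed over all probes (log2 fold change -0.82, 95% interval -1.08 to -0.55, adjusted p = 0.0298). Probe ILMN_2374425 read 9.18, 8.91 and 9.16 with vehicle and 8.38, 8.44 and 8.48 with riluzole, again without overlap. It was 1.57-fold lower with an adjusted p of 0.0539, just above the threshold. The 3 probes detected on all 6 arrays thus lay between -0.82 and -0.59, and 1 of them was called. The dimmest, ILMN_1733419, was kept through the vehicle group, with 3 vehicle arrays and 1 riluzole array detected, and its groups overlapped. Its log2 fold change was -0.42 (adjusted p = 0.490), and -0.68 to -0.21 with 1 array left out, so its sign adds no support.

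The call of ILMN_1795852 was lost with any single array left out, at adjusted p-values of 0.0803 to 0.110. It was also lost with the authors' processed values (0.0596) and with the replicate block (0.117). At the level of genes, CCNE1 passed under 2 of 10 other settings, quantile normalization without background correction (0.0221) and eBayes with an intensity trend and robust variance together (0.0188). With the mean of its kept probes, the dim ILMN_1733419 among them, the log2 fold change was -0.62 and the adjusted p 0.0573. Over all kept probes 21.8% had groups that did not overlap.

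Whether the E cyclins fell by different amounts was tested within arrays. The log2 value of CCNE2 minus that of CCNE1 was 1.37, 1.16 and 1.31 on the vehicle arrays and 1.09, 1.36 and 0.65 on the riluzole arrays. The groups overlapped, and the mean moved by -0.25 (exact permutation test, two-sided, p = 0.30, n = 3 per group, where 0.10 is the smallest p that 3 against 3 arrays allow). The shift was -0.06 without riluzole replicate 3 and -0.41 without riluzole replicate 2, so its size varied with single arrays. CCNE1 was read here by ILMN_2384785 (log2 fold change -0.59). Its probes ILMN_2374425 (-0.66) and ILMN_1795852 (-0.82) lay closer to CCNE2 (-0.83), and the test was not run with either alone.

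**Figure D3:**
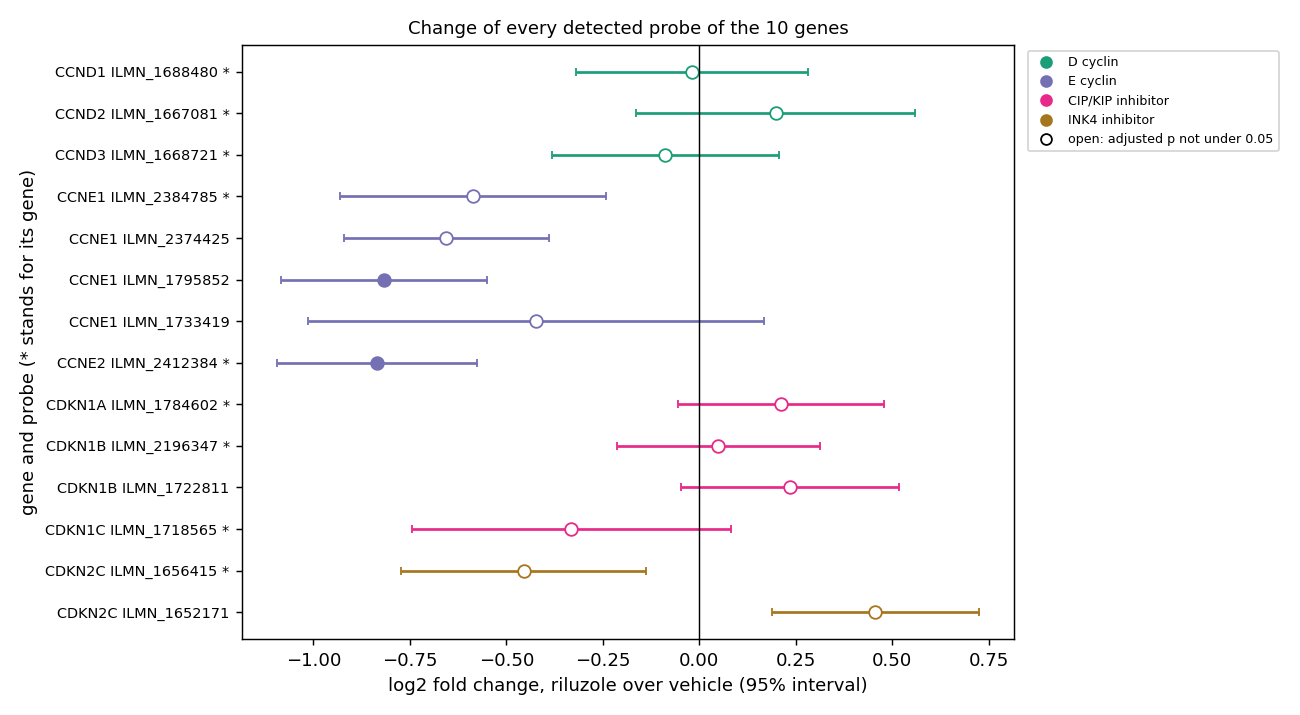
Log2 fold change, riluzole over vehicle, with 95% interval for each of the 14 kept probes, coloured by class; filled points passed the adjusted threshold of 0.05 over all kept probes. The CCNE2 probe and the 3 brighter CCNE1 probes lie below 0 with their whole intervals, the D cyclins lie around 0, and the kept CDKN2C probes lie on opposite sides of it.

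Of the CIP/KIP inhibitors, 0 of 3 passed in the limma fit, and 0 of the 3 had an unadjusted p under 0.05, against 16.3% of all genes tested. CDKN1A encodes p21, which halts the cycle after DNA damage and also assembles D cyclin complexes. It read 11.94, 11.81 and 12.01 log2 units with vehicle and 11.99, 12.21 and 12.20 with riluzole. Riluzole replicates 2 and 3 were above every vehicle array and riluzole replicate 1 was not, giving a fold of 1.16 (95% interval 0.97 to 1.38). CDKN1B encodes p27, which binds CDK2 complexes in resting cells and is cleared before S phase. Its brighter probe, ILMN_2196347, read 10.26, 10.48 and 10.27 with vehicle and 10.32, 10.50 and 10.35 with riluzole, with full overlap and a fold of 1.03 (0.87 to 1.23). The other, ILMN_1722811, read 9.66, 9.69 and 9.50 against 9.89, 9.99 and 9.68. It overlapped in riluzole replicate 3 alone, and its log2 fold change was 0.24 (adjusted p = 0.410). CDKN1C encodes p57, an imprinted inhibitor of differentiating tissues. It read 8.04, 8.21 and 8.37 with vehicle and 8.12, 7.49 and 8.02 with riluzole, a log2 fold change of -0.33 (-0.74 to 0.08). Riluzole replicate 2 alone was far down, and without it the log2 fold change was -0.14. The intervals of CDKN1A and CDKN1B end below a 1.5-fold rise, and that of CDKN1C allows a fall of up to 1.67-fold.

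CDKN2C encodes p18, an inhibitor of CDK4 and CDK6 that cycling cells themselves express. Its 2 clearly detected probes moved in opposite directions. The brighter, ILMN_1656415, stood for the gene and read 9.54, 9.56 and 9.51 log2 units with vehicle and 8.82, 9.12 and 9.30 with riluzole. All riluzole arrays were lower and more spread (SD 0.24 log2 units) than the vehicle arrays (SD 0.03), and the log2 fold change was -0.46 (-0.76 to -0.15, adjusted p = 0.152). The other, ILMN_1652171, read 7.35, 7.47 and 7.66 with vehicle and 7.97, 7.97 and 7.91 with riluzole. All riluzole arrays were higher, with a log2 fold change of 0.46 (0.19 to 0.72, adjusted p = 0.125 over all probes). Neither passed, and the mean of both gave 0.00, so no direction is given for the gene. Read by its brighter probe, the gene passed as lower in 1 of 10 other settings. That setting was eBayes with an intensity trend and robust variance together (adjusted p = 0.0471).

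The divergence of the probes within arrays is given as a description, since it was looked for after their opposite changes were seen. The brighter minus the dimmer probe was 2.19, 2.09 and 1.85 log2 units with vehicle and 0.85, 1.15 and 1.39 with riluzole. The mean difference changed by -0.91 log2 units, and by -1.04 to -0.77 with any 1 array left out. RefSeq gives CDKN2C several transcription starts, and which transcript each probe reads was not tested. The third probe, ILMN_2359332, was detected on 1 vehicle and 1 riluzole array.

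**Figure D4:**
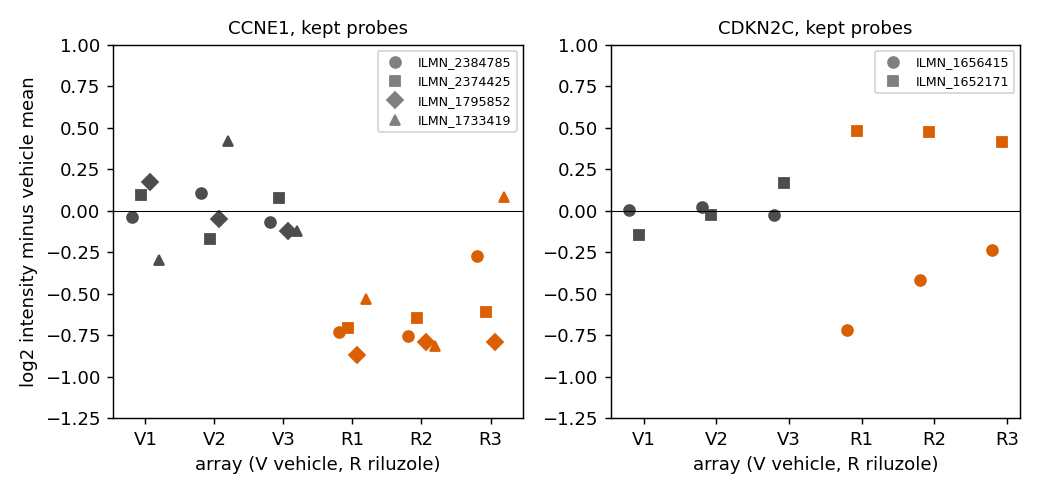
Log2 intensity minus the probe's own vehicle mean on each array (V vehicle, R riluzole) for the 4 kept CCNE1 probes (left) and the 2 kept CDKN2C probes (right). The 3 brighter CCNE1 probes lie below 0 on every riluzole array, and the CDKN2C probes part to either side of 0.

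Across both classes, groups did not overlap for CCNE1, CCNE2 and CDKN2C, 3 of the 9 tested members, all 3 lower on the probe that stood for the gene, while the other kept CDKN2C probe was higher. The groups stood apart in 22.7% of the 14887 genes tested, 11% lower and 11.8% higher.

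The kinases and RB-E2F proteins on which the members act showed no called change, 0 of 20 by the limma fit, with 3 at an unadjusted p under 0.05 (against 16.3% of all genes tested) and a median log2 fold change of -0.04. CDK4 (-0.03), CDK6 (-0.11) and CDK2 (0.09), the kinases that D and E cyclins activate, all had overlapping groups. RB1, which encodes RB, was -0.44 (adjusted p = 0.201), and its relative RBL1 (p107) was -0.49 (0.114). Both had all riluzole arrays below all vehicle arrays. On the whole list 5 of the 20 were apart in this way and 1 in the other, against 11% and 11.8% of all genes tested. RBL1 read 8.31, 8.07 and 8.51 log2 units with vehicle and 7.76, 7.82 and 7.83 with riluzole. The E2F partner TFDP2 was -0.32 (adjusted p = 0.249). E2F1, an activator of the E cyclin genes, was -0.22 (adjusted p = 0.606) with overlapping groups.

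Of 14 genes of the ubiquitin ligases that clear G1 cyclins and inhibitors, 13 were tested. By their brightest probes 1 fell and 0 rose, against 0.43% called lower and 0.752% called higher over all genes tested. The 1 was DTL (CDT2 in the older naming), the receptor through which the CUL4 ligase marks p21 and the licensing factor CDT1 for destruction in S phase. It read 9.92, 9.94 and 9.77 log2 units with vehicle and 9.12, 8.95 and 9.001 with riluzole. The groups were far apart, a 1.80-fold fall (adjusted p = 0.0160). The DTL call held without riluzole replicate 1 (0.0479) and was lost without vehicle replicate 1, 2 or 3 (0.0602, 0.0658 and 0.0504) and without riluzole replicate 2 or 3 (0.0602 and 0.0713). It was also lost with the replicate block (0.0763). DDB1, the adaptor that joins such receptors to CUL4, was 0.03 on its brightest probe. Its dim probe ILMN_1695430 passed as higher over all probes (log2 fold change 1.19, adjusted p = 0.0337), where 0.457% of probes were called higher. That probe was detected on 2 vehicle and 3 riluzole arrays, and the other 3 DDB1 probes lay between -0.12 and 0.05 with overlapping groups. SKP2, the receptor that marks p27 for destruction, was -0.36 on its brightest probe (95% interval -0.60 to -0.12, adjusted p = 0.148). By that reading it passed in 1 of 10 other settings (adjusted p = 0.0353). All 3 SKP2 probes had groups apart and negative values, -0.52 to -0.35, and 0 of them passed over all probes. CUL4B, a scaffold of the ligase that DTL serves, was -0.38 (0.202) with groups apart. Groups were apart in 22.7% of all genes tested and in 21.8% of all kept probes.

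Upstream regulators of the members gave 0 calls among 18 tested of 19 listed in the limma fit, with 3 at an unadjusted p under 0.05 (against 16.3% of all genes tested). KLF6, a zinc-finger activator of CDKN1A, was -0.40 (adjusted p = 0.118), and passed in 2 of 10 other settings (lowest adjusted p 0.0202). MYC, which drives G1 cyclins and represses CDKN1A and CDKN2B, was -0.32 (0.205). FOXM1, a factor of the G2/M programme, was 0.28 (0.301).

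Other cyclins and CDK inhibitors gave 0 calls among 9 tested of 10 listed, with 5 at an unadjusted p under 0.05 (against 16.3% of all genes tested) and a median log2 fold change of 0.28. CCNA2, the cyclin of S and G2 phase, read 12.90, 12.82 and 12.91 log2 units with vehicle and 13.26, 13.30 and 13.32 with riluzole. Its groups were apart, with a log2 fold change of 0.42 (0.20 to 0.64) and an adjusted p of 0.0857. CCNA2 passed in 3 of 10 other settings (lowest adjusted p 0.00804) and in 0 of 6 fits with 1 array left out. On this list groups were apart and higher in 4 of the 9 tested and lower in 0, against 11.8% and 11% of all genes tested. CCNA1, the A cyclin best known from the germ line, was 0.38 (adjusted p = 0.178). CDKN2D, the INK4 inhibitor p19, was 0.28 (adjusted p = 0.230), and its further probe was 0.48, both with groups apart. The list's median was positive where that of the 5 member cyclins was -0.09, and the difference between the lists was not tested.

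**Figure D5:**
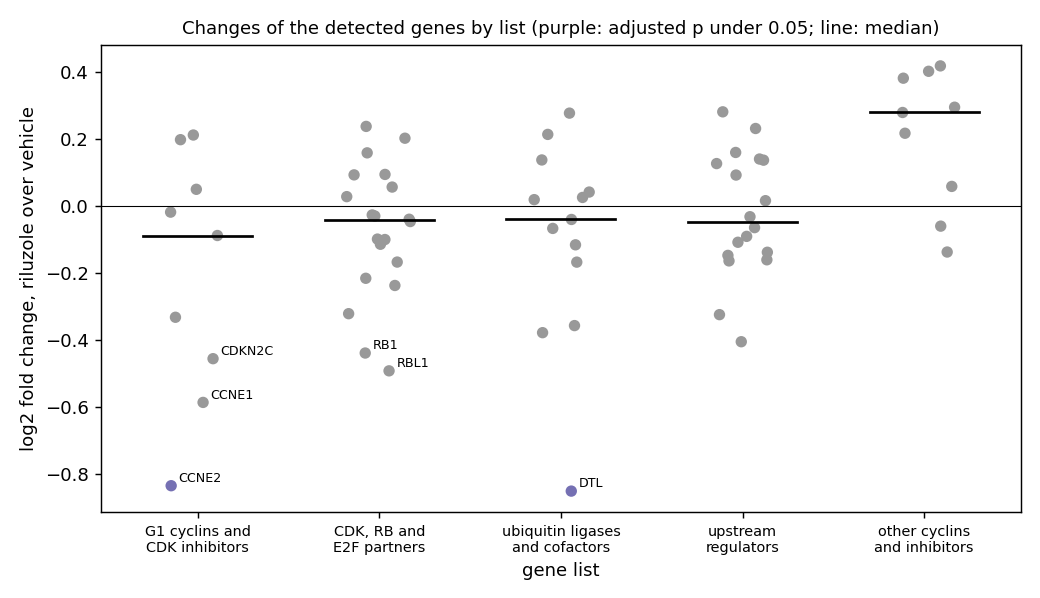
Log2 fold change, riluzole over vehicle, of each tested gene by list, with the list's median as a line and genes past the adjusted threshold of 0.05 in purple. CCNE2 and DTL are the only purple points, at -0.83 and -0.85, and the other cyclins and inhibitors have the highest median (0.28).

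The 5 genes whose pattern over the 6 arrays was nearest to that of CCNE2 were found by the root mean square difference of log2 values, each gene centred on its own mean. They were MSMO1, a sterol oxidase (0.0747), LIPG, an endothelial lipase (0.0785), SOX9, a transcription factor (0.0842), SNORD35B, a small nucleolar RNA (0.0886), and HSPB8, a small heat shock protein (0.0981). Among the members the nearest were CDKN2C (0.239) and CCNE1 (0.248), by the probes that stood for them.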

How the data were processed

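The deposited table holds raw intensity, an average over beads per the file headers, on a linear scale without normalization, and a detection p-value beside each value. The authors' deposited value table holds processed intensity; how it was made is not stated in the labels or headers, and it served as an alternative, floored at 16 before log2. Per the labels' protocols, RNA was extracted with RNeasy Plus and biotin-labelled with TotalPrep-96.

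The tools were R 4.3.3 and limma 3.58.1. After leaving out 979 control rows, neqc was run with detection p-values for background, an offset of 16 and quantile normalization; values are log2, and the offset draws the folds of dim probes toward 1. Probes detected at p under 0.05 on at least 3 arrays were kept (20788), and each gene was read by its brightest kept probe (14887 genes, symbols updated through RefSeq GRCh38.p14). A 2-group model was fitted over all genes, and again over all kept probes, with eBayes and Benjamini-Hochberg adjustment at 0.05. The fit was tested on simulated data. The difference between CCNE2 and CCNE1 within arrays was tested by exact permutation. Fold changes are riluzole over vehicle, with 95% intervals.

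The members, lists and tests were chosen with earlier results of these data known. Named are all members, list genes past the threshold or among the 3 smallest p-values of their list, CDK2, CDK4, CDK6, RB1, E2F1 and SKP2, and the 5 genes nearest to CCNE2; CDKN2A, DDB1 and the cell markers were named from the lists after their values were seen. Some listed genes are not reported here. Alternatives covered background, normalization, filter, variance model, array weights, replicate block, probes per gene, a fold of 1.5 and each array left out.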

Additional observations from a re-analysis of the deposited data

How the results depend on the processing

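The count of members past the threshold was 1, and it was 2 with quantile normalization without background correction, 3 with eBayes using a trend and robust variance, and 0 with the replicate block. It ran from 0 to 1 with 1 array left out. The count over all genes was 176, and it was 563, 661 and 22 in those same 3 settings. It was 94 with the processed values of the authors, 70 with no filter, 360 with the stricter filter (p under 0.01 on all arrays), and 21 to 41 with 1 array left out. CCNE2 kept its direction in all 10 other settings and its call in 9, the exception being the replicate block (adjusted p = 0.0868). Deviations of same-numbered vehicle and riluzole arrays from their group means correlated at -0.146, -0.105 and 0.00115 across genes. Deviations within a group are bound to one another, so these values cannot decide whether the numbers pair the samples. The change in the CCNE2 to CCNE1 ratio kept its sign in every setting that was run, and was -0.41 to -0.06 with 1 array left out.

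The sign of small log2 fold changes turned in a few fits. CDKN2C went to 0.000481 with the mean of its kept probes, which averages probes of opposite sign. With 1 array left out, CCND1 ranged from -0.0800 to 0.0915, CCND3 from -0.152 to 0.00709, CDKN1B from -0.00425 to 0.119 and CDK4 from -0.0668 to 0.0376. The cause was not tested. Background from the negative control probes, added after the data were seen, left both counts at 176 and 1. Signals near background limit what can be said of CCND2 and CDKN2B.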
